A study of Arabidopsis thaliana with 12 samples.

Results

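The plastid operon *psbB*-*psbT*-*psbH*-*petB*-*petD* was followed through the RNA of anti-YFP precipitates, with *At*MKIP1-YFP or the control *At*BE3-YFP as the bait, and through the input RNA of the same extracts. Its members were taken by position, as all plus-strand segments of the segment-count tables that overlap nt 72100 to 77700 of the TAIR10 chloroplast genome, a window that holds its 5 genes. This gave 8 of the 555 precipitate segments, of which 6 lie wholly inside the window, and 122 of the 574 input segments, of which 120 lie wholly inside. A segment is a stretch of one strand within which DiffSegR found similar differences between the lines and its borders rest on the very contrast that is tested here, which the p-values leave out of account.

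In plants this operon is transcribed as 1 long RNA, which is then cut, trimmed and spliced into a large set of shorter RNAs. *psbB* encodes CP47, an inner antenna protein of photosystem II, and *psbT* and *psbH* encode small subunits of the same complex. *petB* encodes cytochrome b6 and *petD* subunit IV of the cytochrome b6f complex, and each is interrupted by a group II intron behind a very short first exon. Group II introns are ribozymes by descent that need protein partners in plastids. The plastid maturase MatK acts on introns of subgroup IIA, whereas the *petB* and *petD* introns belong to subgroup IIB and are not counted among its targets by the study. In leaves silenced for *AtMKIP1* the study also found somewhat lower ratios of spliced to unspliced RNA in several introns outside the targets. It ascribed these to more precursor alone, except for *petB*, *petD* and *ndhA*. Silencing of *AtuL4c* gave similar defects, and the study proposes that they are secondary. Nucleus-encoded helical repeat proteins are known to act on this operon in *Arabidopsis*: HCF107 is needed for RNAs with a 5′ end upstream of *psbH*, and HCF152 for the processing of *petB* RNA. *psbN*, which is needed for the assembly of photosystem II, lies on the opposite strand between *psbT* and *psbH*.

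The *At*MKIP1-YFP line carried *PUBQ10*::*AtMKIP1-YFP* in the *mkip1-2* mutant (Col-0 background). The *At*BE3-YFP line carried *PUBQ10*::*AtBE3-YFP*, a tagged starch branching enzyme of the plastid that served as the control bait, in wild-type Col-0, where native *At*MKIP1 is present. The lines therefore differ in bait and in genotype, and these cannot be told apart. The *UBQ10* promoter is constitutive, so that neither bait was made from its native promoter. Both bait genes are nuclear and have no counts in these plastid tables. Seedlings were 10 days old, and 3 pools of 10 g per line gave 3 precipitate and 3 input libraries each, 12 libraries in all. The labels say no more of the pools than this, and p-values measure only the spread between them. Input RNA was depleted of ribosomal RNA and fragmented, which the methods do not state for precipitate RNA, so that the fractions differ in preparation as well. The precipitate libraries held 119799 to 319005 mapped reads and the input libraries 2213500 to 2868106. A read counts in every segment it overlaps. This gave 2.03 to 2.12 counts per mapped read in the *At*MKIP1-YFP precipitates, 1.23 to 1.28 in those of *At*BE3-YFP and 1.08 to 1.10 in the inputs. Values are given as raw counts or as CPM, the counts scaled to 1000000 mapped reads. Densities are CPM per kb of segment. Target loci are the genes of the 7 introns that the study counts as targets, with the genes next to *rpl2* from *rps19* to *rpl23* and 800 nt before *rps12* exon 2. Of the 553 precipitate segments tested, 129 lay outside them, with those of the operon and of *psbN* among these.

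Both introns begin alike, which is why their splice junctions are shown first, as read from the reference chloroplast genome (plus strand). The *petB* intron (chrPt:74847-75650, 804 nt) follows an exon of 6 nt, and the *petD* intron (chrPt:76489-77197, 709 nt) an exon of 8 nt. In the next pair of sequences the capitals mark the 10 nt at the intron start that are identical in both.
petB exon 1 and intron start (chrPt:74841-74870): atgagtGTGTGACTTGttagaattgaccct
petD exon 1 and intron start (chrPt:76481-76510): atgggagtGTGTGACTTGaactattgatcg
In the pair of sequences at the other end of the introns the capitals mark the start of exon 2.
petB intron end and exon 2 start (chrPt:75630-75659): ccttggtttacctatctcaatAAAGTTTAT
petD intron end and exon 2 start (chrPt:77177-77206): taagaattcacctatcccaatAACAAAAAA
Of the 20 annotated introns of the plastome with the inverted repeat counted once, 13 began with GTGNG (N, any base; coding strand, no overlap with another motif), and the 10-nt start was found in no intron other than the *petB* and *petD* introns.

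**Figure D1:**
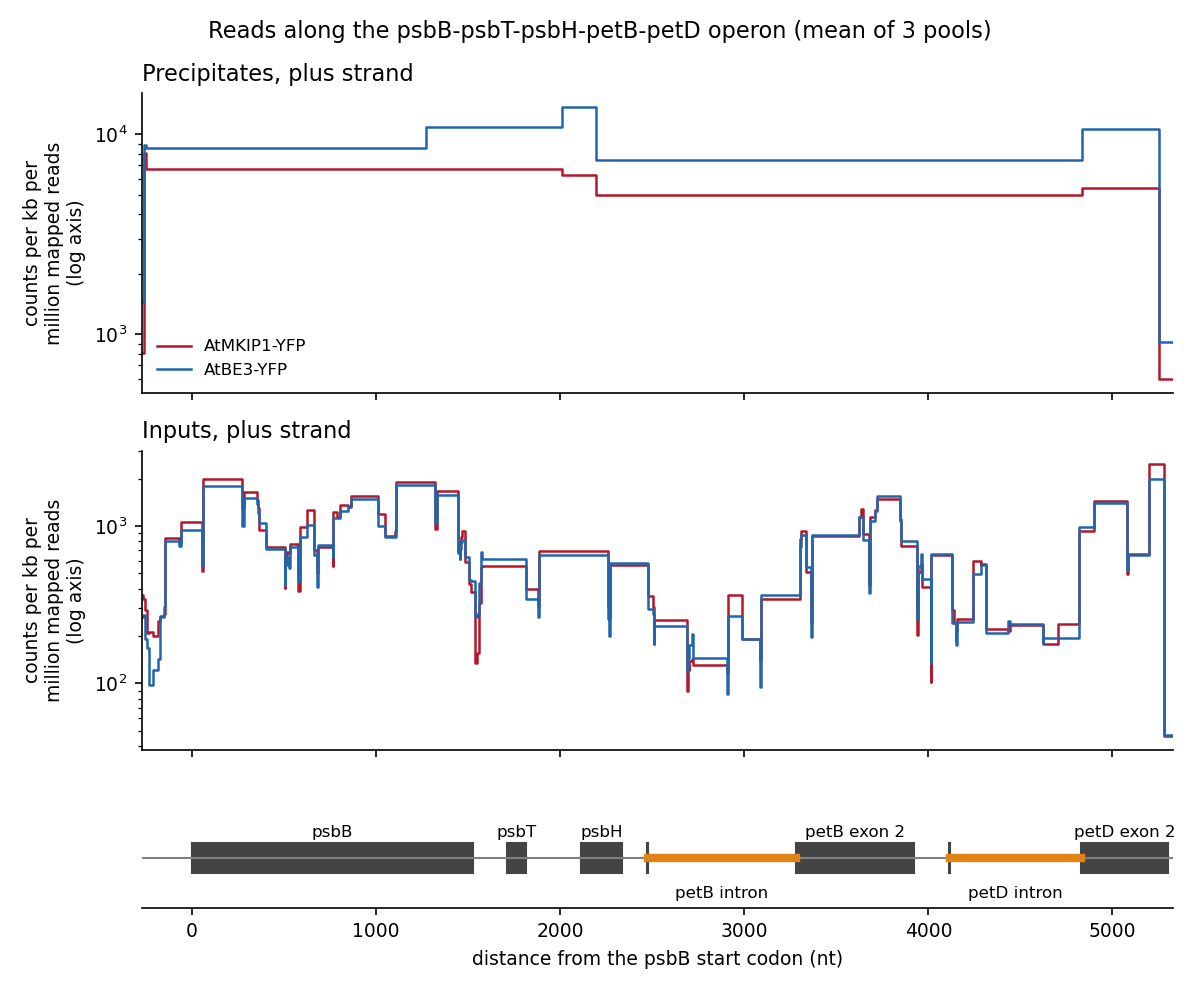
Density in CPM per kb (log axis) along the plus strand of the operon in the precipitates (top) and the inputs (middle), as the mean of 3 pools per line, with exons (dark) and introns (orange) at the bottom; the horizontal axis is the distance from the *psbB* start codon in nt. Each segment's counts were divided by its length plus 59 nt, the reach of the longest reads kept, so that short segments do not stand out by their length alone. The lines run apart in the precipitates, which have 1 segment from the end of *psbH* to the *petD* intron, and close together in the inputs, where both introns are low.

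Per mapped read, the precipitates held less of the operon's RNA with *At*MKIP1-YFP as the bait than with *At*BE3-YFP. The 6 inner segments together had 7580, 11199 and 8437 counts for *At*MKIP1-YFP and 7804, 13627 and 6272 for *At*BE3-YFP. In CPM this was 34033 ± 2230 (SD, n = 3) against 51288 ± 2330 (SD, n = 3), and the lines did not overlap. The summed operon had a log2 fold change of -0.59 with a standard error (SE) of 0.14 (adjusted p = 9.7e-04 over 49 features, quasi-likelihood test of edgeR). Of the 8 overlapping segments, 6 were lower at an adjusted p under 0.01, where 15.2% of all segments tested and 64.3% of the 129 outside the target loci were lower, and 0 were higher, where 72.3% of all were. Without *At*MKIP1-YFP replicate 2, 3 of the 8 were called lower. An unadjusted p under 0.05 was found in edgeR for 6 of the 8 and for 510 of all 553, and DESeq2 with its own size factors also called 0 of them higher. In 7 of the 8 the lines did not overlap, with *At*MKIP1-YFP lower, as in 17.8% of all 555 segments, most of which lie in the target loci. This share was not computed for the segments outside these loci. Of the 6 inner segments, 4 were called lower, and in 5 the lines did not overlap, with *At*MKIP1-YFP lower. The median log2 fold change of the 6 inner segments was -0.64 against -0.74 for the segments outside the target loci. When libraries were scaled on the segments outside these loci, which moves the median precipitate fold change up by 0.61, the operon stood at 0.02 and 0 of its 8 segments were called lower or higher. The operon's own segments are among those outside, so that it was scaled in part on itself. With TMM, DESeq2 size factors or the sum of counts as the library size, 8 of the 8 were called lower. The summed operon was at -0.76 (adjusted p = 3.2e-05, edgeR), -0.42 (adjusted p = 0.012, DESeq2) and -1.31 (adjusted p = 1.2e-06, edgeR). TMM and DESeq2 set their factors on segments and on summed features apart. They moved the median of the segments by -2.14 and -1.96 and that of the features by -0.16 and 0.17. Their values for segments and for the summed operon are therefore not on the same scale.

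The fold changes of the inner segments ran from -1.12 to -0.12 along the operon. The first inner segment, 9 nt of the *psbB* leader (chrPt:72111-72119), had 104, 192 and 150 counts with *At*MKIP1-YFP and 76, 134 and 98 with *At*BE3-YFP. The segment with most of the leader and of *psbB* (chrPt:72120-73641) had 2252, 3585 and 2670 against 2035, 3889 and 1536. Per mapped read the lines overlapped in the former and not in the latter, and neither passed the test, with log2 fold changes of -0.12 (SE 0.25, adjusted p = 0.66) and -0.35 (SE 0.18, adjusted p = 0.075, edgeR over 553 segments). These calls depend on the scaling, since both segments were lower with TMM (-2.26 and -2.51), with DESeq2 size factors (-2.10 and -2.33) and with the sum of counts as the library size (-0.83 and -1.08, adjusted p = 0.0072 and 4.7e-05 in edgeR), and stood above 0, not called, when scaled outside the target loci (0.50 and 0.26).

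The next segment (chrPt:73642-74379) holds the last 256 nt of *psbB*, all of *psbT*, which encodes a subunit at the dimer interface of photosystem II, and 196 nt of the *psbT*-*psbH* spacer, which has *psbN* on its other strand. It had 1170, 1769 and 1336 counts with *At*MKIP1-YFP and 1346, 2236 and 1075 with *At*BE3-YFP, or 5337 ± 308 against 8679 ± 294 CPM (SD, n = 3). All *At*MKIP1-YFP libraries were below all *At*BE3-YFP libraries, and the segment fell by 0.70 on the log2 scale (SE 0.17, adjusted p = 0.0013 in edgeR). Without *At*MKIP1-YFP replicate 2 its adjusted p in edgeR was 0.01002.

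The segment that fell furthest ends inside *psbH* (chrPt:74380-74563). It covers the 105 nt upstream of the *psbH* start codon and the first 79 nt of the frame, which encodes a phosphoprotein of photosystem II. It had 348, 476 and 390 counts with *At*MKIP1-YFP and 467, 731 and 507 with *At*BE3-YFP. In CPM these were 1526 ± 92.8 against 3326 ± 785 (SD, n = 3), again without overlap. The segment had a log2 fold change of -1.12 (SE 0.20, adjusted p = 9.6e-05 in edgeR). With libraries scaled outside the target loci the value was -0.51 (adjusted p = 0.028, edgeR). The segment begins at the position of the first base of *psbN*, which lies on the other strand (chrPt:74249-74380).

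From there 1 segment of 2642 nt runs through the end of *psbH*, *petB* with its intron, *petD* exon 1 and the *petD* intron (chrPt:74564-77205). It had 3105, 4326 and 3288 counts with *At*MKIP1-YFP and 3095, 5359 and 2406 with *At*BE3-YFP. In CPM these were 13459 ± 1147 and 20055 ± 761 (SD, n = 3), without overlap. Its log2 fold change of -0.58 (SE 0.18, adjusted p = 0.0076 in edgeR) was no longer called without *At*MKIP1-YFP replicate 1, 2 or 3 or without *At*BE3-YFP replicate 2 (largest adjusted p = 0.041). No border fell at either end of the *petB* intron or at the start of the *petD* intron, whereas the next border lies 8 nt behind the *petD* intron.

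The last inner segment holds 417 of the 475 nt of *petD* exon 2 (chrPt:77206-77622), with 601, 851 and 603 counts against 785, 1278 and 650. In CPM these were 2578 ± 294 and 5092 ± 291 (SD, n = 3). The lines did not overlap, and *petD* exon 2 fell by 0.98 on the log2 scale (SE 0.17, adjusted p = 9.5e-05 in edgeR). Scaled outside the target loci it was at -0.37 and was not called (adjusted p = 0.057, edgeR). The 2 outer segments, which reach far beyond the window on either side (chrPt:56358-72110 and chrPt:77623-101056), had log2 fold changes of -0.84 and -0.61 (adjusted p = 5.0e-04 and 0.0049 in edgeR), the latter not called without *At*MKIP1-YFP replicate 1, 2 or 3 or *At*BE3-YFP replicate 2. They hold 11 nt of the leader and, at the other end, 50 nt of *petD* exon 2.

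**Figure D2:**
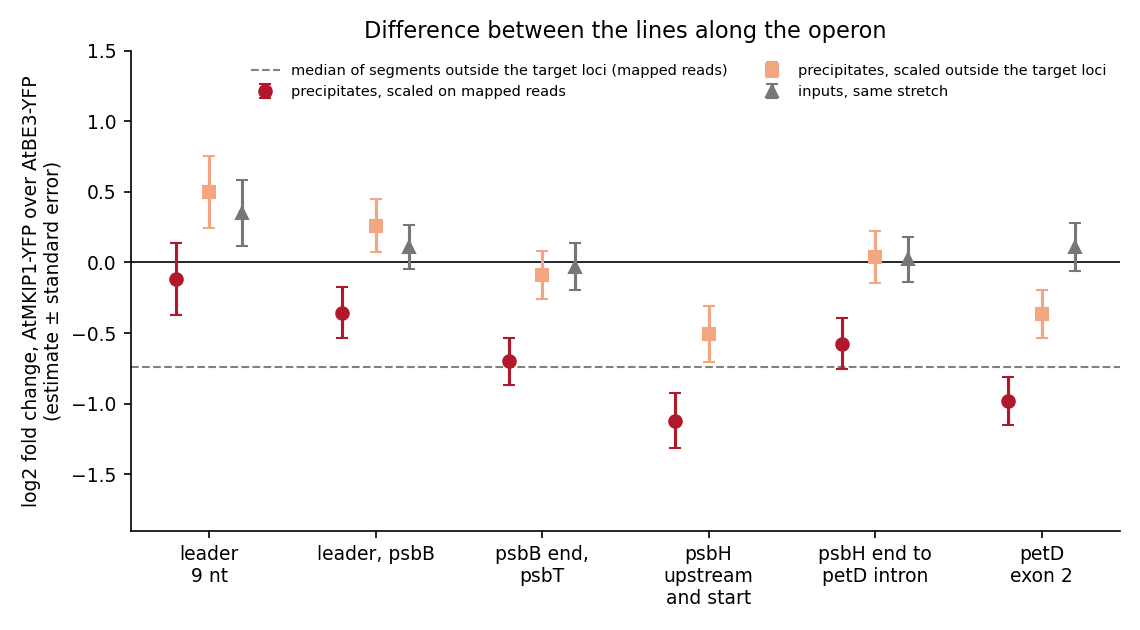
Log2 fold change of *At*MKIP1-YFP over *At*BE3-YFP (vertical axis, estimate ± standard error, n = 3 pools per line) for the 6 precipitate segments inside the operon, scaled on mapped reads (circles) or on segments outside the target loci (squares), and for the same stretches in the inputs (triangles; none for the *psbH* stretch, where no input segment lies at least 50% inside). The dashed line marks the median of the 129 segments outside the target loci, -0.74. Of the circles, those of the *psbH* and *petD* exon 2 segments lie below it and all others above it. The *psbT* segment (-0.70) lies above it by less than its standard error.

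A measure that needs no scaling between libraries is the density of each inner segment relative to the other 5 in the same library, which was chosen after the data were seen. The *psbH* segment had 1.98 times the density of the rest with *At*BE3-YFP and 1.36 times with *At*MKIP1-YFP. On the log2 scale its values were 0.48, 0.36 and 0.49 in the *At*MKIP1-YFP precipitates and 0.88, 0.71 and 1.35 in those of *At*BE3-YFP, a difference of -0.54. *petD* exon 2 went from 0.45, 0.34 and 0.50 with *At*BE3-YFP to 0.07, 0.01 and -0.09 with *At*MKIP1-YFP, a difference of -0.43. Both were lower with *At*MKIP1-YFP in all libraries.

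The segment with most of *psbB* went the other way, with 0.15, 0.30 and 0.28 against -0.11, 0.07 and -0.23, a difference of 0.34. The segment with *psbT* differed by -0.13. In these 4 segments the lines did not overlap, and each had p = 0.10 in a 2-sided exact permutation test, the smallest that 3 against 3 libraries allow (0.15 after Benjamini-Hochberg adjustment over the 6 segments). The 9-nt leader segment (0.50, exact permutation p = 0.20) and the long segment from *psbH* to the *petD* intron (0.02, exact permutation p = 0.80) overlapped between the lines. The 9-nt segment stood 7.08 to 10.0 times above the rest with plain segment lengths, and its counts include all longer reads that touch it. With lengths extended by the longest reads it was still the densest of the 6 with *At*MKIP1-YFP, at 8082 CPM per kb. With *At*BE3-YFP it then had 8880, below the 13688 of the *psbH* segment.

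**Figure D3:**
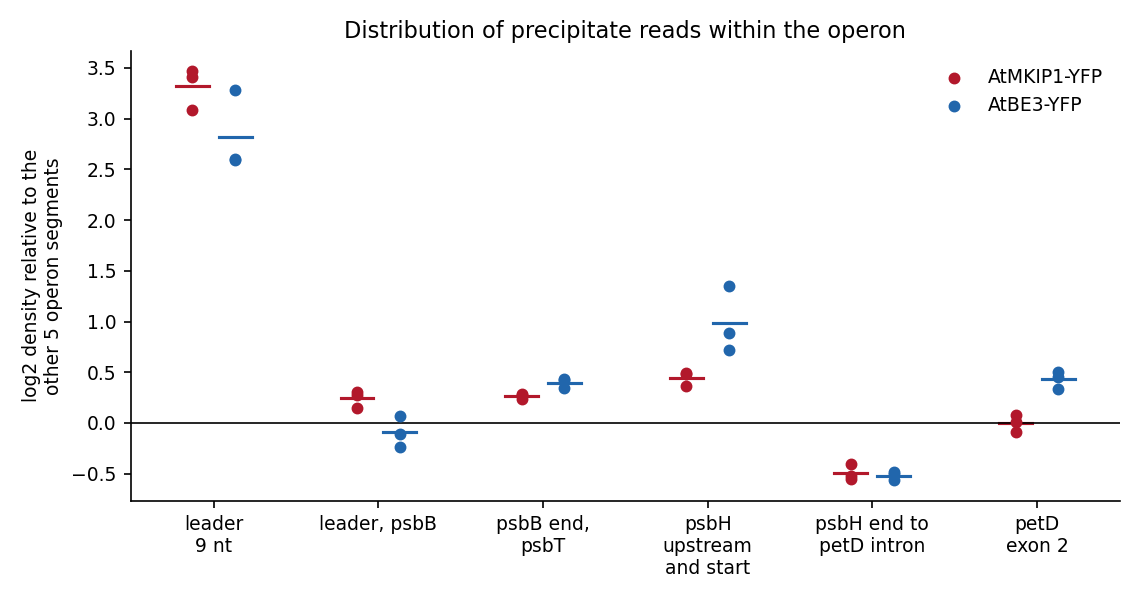
Log2 density of each of the 6 precipitate segments inside the operon relative to the other 5 segments of the same library (vertical axis), for the 3 *At*MKIP1-YFP and the 3 *At*BE3-YFP precipitates (points, with the mean as a bar). The *psbH* segment and *petD* exon 2 are lower with *At*MKIP1-YFP in every library, the *psbB* segment is higher, and the segment with both introns lies at -0.49 and -0.52.

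On the opposite strand, *psbN* gave the densest segment of the window in the precipitates among those over 60 nt. That minus-strand segment (chrPt:74240-74401, 162 nt) had 734, 1017 and 797 counts with *At*MKIP1-YFP and 1248, 1488 and 1054 with *At*BE3-YFP. Its density was 19754 ± 1443 against 45984 ± 9489 CPM per kb (SD, n = 3), where the *psbH* segment, the densest of the 5 such segments on the plus strand, had 8293 ± 504 against 18077 ± 4268. With segment lengths extended by the longest reads the *psbH* segment had 6279 with *At*MKIP1-YFP, below the 6697 and 6694 of the segments at chrPt:73642-74379 and chrPt:72120-73641. The *psbN* segment was lower with *At*MKIP1-YFP, at -1.22 on the log2 scale (SE 0.19, adjusted p = 3.9e-05 in edgeR). With libraries scaled outside the target loci it was at -0.60 (adjusted p = 0.0092, edgeR). The minus-strand segments on both sides, which cover the strand opposite to the rest of the operon, had densities of 283 to 877 and log2 fold changes of -0.72 and -0.84.

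In the inputs no difference between the lines passed the test for the operon or its genes. The summed segments had 17235, 24463 and 29824 counts in the *At*MKIP1-YFP line and 24978, 19206 and 21241 in the *At*BE3-YFP line, or 9207 ± 1321 against 8800 ± 281 CPM (SD, n = 3). *At*MKIP1-YFP replicate 1 was the lowest and replicates 2 and 3 the highest of all the inputs. The log2 fold change of the operon was 0.07, with a range of -0.22 to 0.35 at 2 SEs on either side (adjusted p = 0.82, edgeR over 69 features). These are whole seedlings, in which fewer cells of a type and less RNA per cell cannot be told apart. Of these 69 features edgeR called 0 (0%), with an unadjusted p under 0.05 for 5, and DESeq2 called 2, of which *psbN* is the one in this window and the other is the *trnL-UAA* intron. In edgeR *psbN* was higher in the *At*MKIP1-YFP line by 0.31 on the log2 scale (SE 0.17, adjusted p = 0.62, not called). The log2 fold changes were 0.09 for *psbB*, 0.27 for *psbH*, 0.04 and 0.02 for the intron and exon 2 of *petB*, and 0.11 for the intron and 0.11 for exon 2 of *petD*, with SEs of 0.16 to 0.19. The *psbH* value rests on 3 adjoining segments of 2, 4 and 5 nt, which share reads. The longer segments that hold most of *psbH* lie mostly outside it. With every overlapping segment *psbH* was at 0.05 (SE 0.17). At 2 SEs the range was -0.12 to 0.66 for *psbH*, -0.30 to 0.38 for the *petB* intron and -0.23 to 0.45 for the *petD* intron, so that differences of this size would not be detectable here. *psbT* and the first exons of *petB* and *petD* have no input segment at least 50% inside them and gave no test of their own.

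Per nt, *psbB* had the most reads of the 5 genes and the *petB* intron the fewest of all parts between the leader and the end of *petD*. As a length-weighted mean over overlapping segments, *psbB* had 2801 CPM per kb over the 6 inputs (2461 to 3246), *petB* exon 2 had 2228 (1933 to 2457) and *petD* exon 2 had 1958 (1719 to 2302). The ranges of *petB* and *petD* exon 2 overlapped. *psbH* followed with 947 (836 to 1121) and *psbT*, most of which shares a segment with the spacer before it, with 735 (598 to 843). The *petD* intron had 659 (536 to 822), which overlaps the range of *psbT*, and the *petB* intron 462 (380 to 529), below all of these. With segment lengths extended by the longest reads kept, chosen after the data were seen, *petD* exon 2 was at 1297 in the *At*MKIP1-YFP line and 1203 in the control line and *petB* exon 2 at 968 and 981, so that these 2 changed places.

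Between the genes, the leader upstream of *psbB* had 1473, the *psbB*-*psbT* spacer 1150, the *psbT*-*psbH* spacer 811, the *psbH*-*petB* spacer 742 and the *petB*-*petD* spacer 1421 CPM per kb, each as the mean of the 6 inputs. This order depends on the treatment of short segments, since with lengths extended by the longest reads the same stretches had 580.4, 526, 603, 577 and 593. The 28 nt behind *petD* fell to 46.4, in a segment that reaches far beyond the window. The densest of the 31 input segments of at least 60 nt lay close to the end of *petD* (chrPt:77570-77653), with 4203 ± 456 in the *At*MKIP1-YFP line and 3396 ± 244 in the *At*BE3-YFP line (SD, n = 3; log2 fold change 0.31, adjusted p = 0.40 in edgeR). The sparsest lay in the *petB* intron (chrPt:75094-75278), with 173 ± 39.4 and 192 ± 16.5. On the other strand, the 97-nt segment with most of *psbN* reached 8407 ± 1057 and 6684 ± 375, more than any segment of at least 60 nt on the plus strand.

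The ratio of intron to exon density was taken within each library, so that it does not depend on the scaling between libraries. For *petB* the log2 ratio in the inputs was -2.34, -2.22 and -2.21 in the *At*MKIP1-YFP line and -2.13, -2.38 and -2.32 in the *At*BE3-YFP line. For *petD* it was -1.67, -1.58 and -1.47 against -1.46, -1.64 and -1.59. The lines overlapped for both genes. The differences were 0.02 for *petB* (exact permutation p = 0.90) and -0.02 for *petD* (exact permutation p = 0.80, both 2-sided), with SDs of 0.07 to 0.13 within the lines, and 3 against 3 libraries cannot go below p = 0.10.

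Over all inputs the exons of *petB* had 4.80 times and those of *petD* 2.96 times the density of their intron. This order depends on how short segments are treated. With segment lengths extended by the longest reads kept, an alternative chosen after the data were seen, the values were 3.98 for *petB* and 4.57 for *petD*, and with the shortest reads 4.28 and 4.05. Which of the introns had fewer reads relative to its exons can therefore not be said from these counts. Among the 9 introns with at least 1 input segment of their own, the intron to exon ratio ran from 0.0393 for *trnG-UCC* to 1.39 for *ndhA*, with 0.208 for *petB* and 0.337 for *petD*. These ratios use plain segment lengths only, so that the order of these introns is open to the same limit. The *ndhA* intron has only 2 segments wholly inside it.

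**Figure D4:**
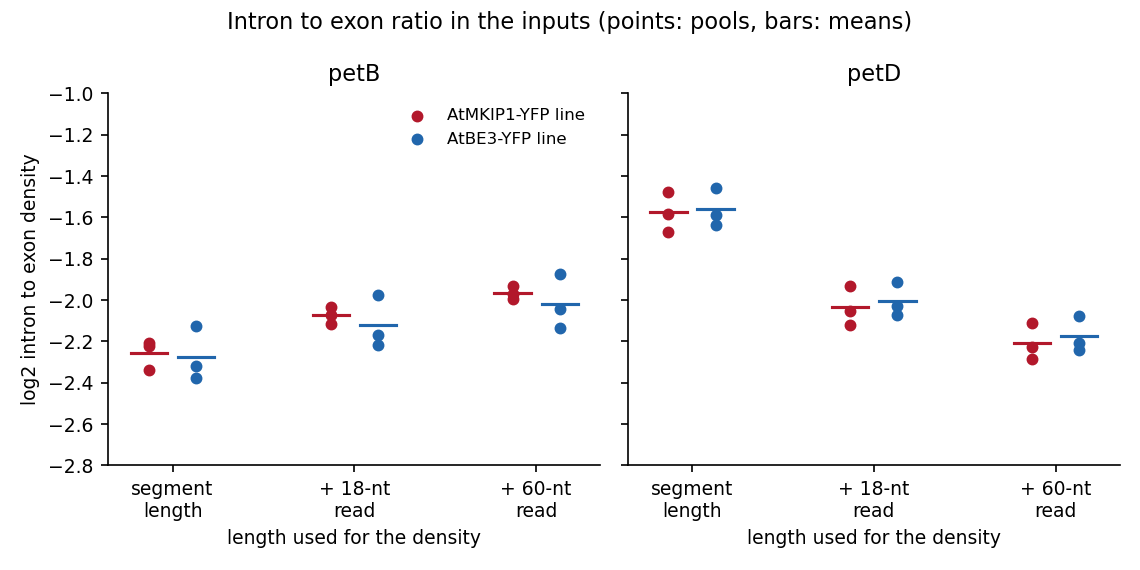
Log2 ratio of intron to exon density (vertical axis) of *petB* (left) and *petD* (right) in the 6 inputs, with counts divided by segment length, or by segment length extended for reads of 18 or 60 nt (horizontal axis); points are pools and bars the means of 3 pools. In each setting the lines overlap, and *petB* lies below *petD* with plain segment lengths (-2.26 and -1.57) but not with 60-nt reads (-1.99 and -2.19).

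In the precipitates the introns could not be separated from the exons. The *petB* intron and its exons lie in 1 segment, so that their ratio is 1 by construction. The *petD* intron has no segment of its own either, and its ratio to the exons compares the long segment with that of *petD* exon 2. This log2 ratio was -0.14, -0.17 and -0.07 with *At*MKIP1-YFP and -0.52, -0.43 and -0.61 with *At*BE3-YFP. The lines did not overlap, and the difference was 0.39 (2-sided exact permutation p = 0.10, the smallest possible). Against *psbB*, *psbT* and *psbH* in place of the *petD* exons the difference was -0.09 (exact permutation p = 0.30), and the lines overlapped.

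Set against the inputs of the same pools, the ratio was higher in the precipitate by 1.25 (SD 0.25, higher in 6 of 6 pools, exact sign-flip permutation p = 0.031, the smallest that 6 pools allow). This value mixes the *petD* intron in the input with *psbH* and *petB* in the precipitate. When the same pair of stretches was compared in both fractions, chosen after the data were seen, the mean difference fell to 0.37 (SD 0.27, 0.02 to 0.68 over the 6 pools, exact sign-flip permutation p = 0.031). It was 0.78 and 1.00 with segment lengths extended by the shortest and the longest reads. These means pool both lines, and most of the shift lay in the *At*MKIP1-YFP line. With plain segment lengths its mean log2 ratio was -0.88 in the input and -0.28 in the precipitate. For *At*BE3-YFP it was -0.82 and -0.69. In the first comparison, too, all *At*MKIP1-YFP pools had a larger difference than all *At*BE3-YFP pools. The fractions also differ in fragmentation and in the depletion of ribosomal RNA, whose part in these differences was not tested.

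Among the 122 input segments that overlap the window, 1 was higher and 1 was lower in the *At*MKIP1-YFP line at an adjusted p under 0.01 (edgeR over 572 segments), where 1.57% of all segments tested were higher and 0.175% lower. In 11 of the 122 the lines did not overlap with the *At*MKIP1-YFP line higher, against 9.23% of all 574, and in 6 with it lower, against 4.7%. The counts without overlap were thus close to the shares of the whole table. The segment called lower was the only 1 called lower among all 572. Without *At*MKIP1-YFP replicate 1, 4 of the 122 were called higher, as were 29 of all 573. Of the 122, 79 had a positive and 43 a negative log2 fold change, with a median of 0.07, as in all segments (0.07). The sequences of the called segments are shown because both lie next to the *psbB* frame, outside of it. The capitals mark the segment in each, and lower case its flanks.
input segment upstream of psbB (chrPt:72136-72158): GGTTCATAGAAAATAGGATTAAC
input segment behind psbB with flanks (chrPt:73900-73929): caacattgctTTTTTTCTTctagtttctgt

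The former lies 235 to 213 nt upstream of the *psbB* start codon. It had 25, 45 and 67 counts in the *At*MKIP1-YFP line and 29, 15 and 16 in the *At*BE3-YFP line, or 17.3 ± 6.03 against 7.95 ± 2.28 CPM (SD, n = 3). The lines did not overlap per mapped read, but only just, with *At*MKIP1-YFP replicate 1 at 11.3 CPM and the highest *At*BE3-YFP library at 10.6. It was higher by 1.13 on the log2 scale (SE 0.27, adjusted p = 0.0024 in edgeR and 0.036 in DESeq2). Without *At*MKIP1-YFP replicate 2 or 3 or without *At*BE3-YFP replicate 2 or 3 the adjusted p in edgeR rose to 0.065, 0.18, 0.025 and 0.089.

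The 4 segments before it (chrPt:72096-72135) had log2 fold changes of 0.33 to 0.62 and overlapped between the lines (adjusted p = 0.17 to 0.56 in edgeR). The segments that follow it up to 173 nt upstream of *psbB* had log2 fold changes of 0.73 and 0.80 (adjusted p = 0.13 and 0.066 in edgeR) and did not overlap between the lines. The next one, from 172 to 152 nt upstream, had 0.04. The whole leader had 0.22 (SE 0.17, adjusted p = 0.79 in edgeR).

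The latter begins 13 nt behind the *psbB* frame and is 9 nt long. It had 23, 24 and 23 counts in the *At*MKIP1-YFP line and 50, 36 and 48 in the *At*BE3-YFP line, or 9.22 ± 1.19 against 18.0 ± 1.83 CPM (SD, n = 3), without overlap. It fell by 0.98 on the log2 scale (SE 0.26, adjusted p = 0.00999 in edgeR and 0.019 in DESeq2), at the edge of the threshold. The call was lost without any 1 library other than *At*MKIP1-YFP replicate 1 (largest adjusted p = 0.15, edgeR). The neighbour behind it, which shares reads with it, had -0.83 (adjusted p = 0.035 in edgeR). The whole *psbB*-*psbT* spacer had -0.28 (SE 0.17, adjusted p = 0.73 in edgeR over 79 features with spacers and stretches added, of which 0% passed). *psbT* behind it had 598, 713 and 784 CPM per kb in the *At*MKIP1-YFP line and 843, 756 and 716 in the *At*BE3-YFP line, which overlap.

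**Figure D5:**
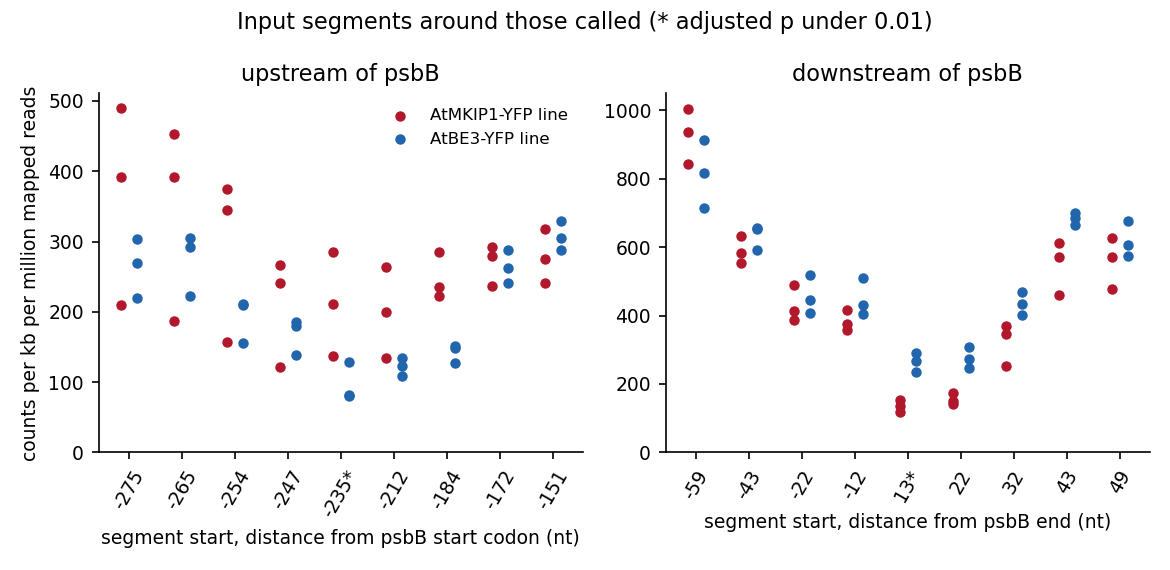
Density in CPM per kb (segment length extended by 59 nt) in the input segments around the 2 that were called (marked with an asterisk), with 1 point per pool; the horizontal axis gives each segment's start in nt from the *psbB* start codon (left) or from the end of the *psbB* frame (right). In the called segment upstream of *psbB*, *At*MKIP1-YFP replicates 2 and 3 lie well above all *At*BE3-YFP pools and replicate 1 just above the highest of them, and behind *psbB* both lines pass through a minimum that is deeper in the *At*MKIP1-YFP line.

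The difference between the baits in the precipitate was also tested against that between the lines in the input, as the interaction of bait with fraction in edgeR, for the 33 features measured in both. The log2 excess was -0.66 for the operon (SE 0.18, adjusted p = 5.1e-04 in edgeR; 0.012 without *At*MKIP1-YFP replicate 3), -0.44 for *psbB* (0.19, adjusted p = 0.024), -1.09 for *petD* exon 2 (0.23, adjusted p = 7.7e-06) and -1.53 for *psbN* (0.22, adjusted p = 2.9e-10). For *psbN* the precipitate was at -1.22 and the input at 0.31. The *psbB* value rests in the precipitate on chrPt:72120-73641 alone, which holds 251 nt of the leader and lacks the last 256 nt of *psbB*. With every overlapping segment, which adds the whole next segment with *psbT*, the *psbB* excess was -0.57 (adjusted p = 0.0038, edgeR). Of all 33 features, 60.6% were lower and 24.2% higher by this test, and the median was -0.79. With libraries scaled outside the target loci the excess of the operon was -0.04 (adjusted p = 0.87, edgeR) and that of *petD* exon 2 -0.47 (adjusted p = 0.071, edgeR).

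Other genes of the complexes that the operon serves were also measured in the precipitates. Of 15 other plastid genes of photosystem II and the cytochrome b6f complex, 4 could be tested, of which 3 were lower and 0 higher (median -0.92, from -1.33 to -0.43), where 42.9% of all 49 features were lower, 42.9% were higher and the median of all was -0.19. Closest to the operon was *psbC*, which encodes the antenna protein CP43, with -0.43 (adjusted p = 0.036 in edgeR, not called), and farthest was *psbL*, a small subunit of photosystem II, with -1.33 (adjusted p = 2.4e-05). In the inputs 12 of the 15 could be tested, with log2 fold changes from -0.20 to 0.56, and 0 passed in edgeR (3 at an unadjusted p under 0.05) or in DESeq2. There *psbE*, which encodes a subunit of cytochrome b559, was closest to the operon with 0.02, and *psbM*, a small subunit of photosystem II, was farthest with 0.56.

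Of 11 other introns that the study does not count as targets, only that of *ndhA* could be tested in the precipitates, and it was lower (-1.11, adjusted p = 0.0032 in edgeR). Of the 7 introns counted as targets, 6 were higher and 0 lower (median 2.84). The closest to the operon was *rps12* intron 2 with 0.31 (adjusted p = 0.24 in edgeR, not called), and the farthest the *trnA-UGC* intron with 3.50. In the inputs 4 introns of the former and 5 of the latter list could be tested and 0 passed in edgeR (1 and 0 at an unadjusted p under 0.05), where DESeq2 called *trnL-UAA* alone. Closest to the operon were *trnG-UCC* at -0.13 and *rpl2* at 0.10, and farthest were *trnL-UAA* at -0.44 and *trnV-UAC* at -0.13.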

How the data were processed

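Adapters were removed by the authors with cutadapt and reads of 18 to 60 nt retained. They aligned with STAR to the TAIR10 chloroplast genome with the second inverted repeat left out, removed duplicates by 8-nt molecular identifiers with UMI-tools (no tool versions given in the sources used here), and deposited whole-number counts of reads per DiffSegR segment and strand. Only the mapped-read numbers of the precipitates are named as deduplicated in the deposited headers. Their tables of fold changes and p-values were not used.

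The quasi-likelihood test of edgeR 4.0.16 (R 4.3.3) took mapped reads as library sizes without other factors, after filterByExpr (count 10, total 15), and p-values were adjusted over all segments by Benjamini-Hochberg, with calls at an adjusted p under 0.01. DESeq2 1.42.0 was an alternative. Features were tested on summed counts of segments at least 50% inside them, and densities are length-weighted means over overlapping segments. A read that touches several segments counts in each. The excess takes precipitate and input of 1 pool as independent. Tables and figures were made with Python 3.11.15, pandas 2.3.3, numpy 2.4.6 and matplotlib 3.10.9. Named are the 5 genes with their introns and spacers, *psbN*, each called segment of the window and the members of each list closest to and farthest from the operon. Others named were chosen after their values were seen. The members, lists and tests were chosen with earlier results of these data known. In data simulated at each fraction's depth and spread (square root of the common dispersion 0.188 for precipitate and 0.131 for input segments), the test recovered 13 of 29 precipitate segments lowered 2-fold and 32 of 33 lowered 4-fold, and 30 of 35 and 34 of 34 input segments. It called 0 of 384 and 1 of 432 unchanged ones. Simulated segments were drawn independently and most were unchanged, whereas real neighbours share reads and have borders set on the tested contrast. These rates therefore need not hold for the data.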

Additional observations from a re-analysis of the deposited data

Results flagged for a closer look

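By an interaction test in edgeR over 33 features, the difference between *At*MKIP1-YFP and *At*BE3-YFP was not the same in precipitate and input for 3 entries of the window. Its log2 value in the precipitate minus that in the input was -1.53 for *psbN*, -1.09 for *petD* exon 2 and -0.66 for the whole operon, and the fractions also differ in fragmentation and depletion of ribosomal RNA, whose part was not tested. For *psbN* the log2 value was -1.22 in the precipitate and 0.31 in the input. Of all 33 features, 60.6% were lower and 24.2% higher by this test at an adjusted p under 0.01. The median over all 33 was -0.79, and the operon lay above it. With libraries scaled outside the target loci the operon was at -0.04 (adjusted p = 0.87, edgeR) and *petD* exon 2 at -0.47 (adjusted p = 0.071, edgeR), neither of them called.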

How the results depend on the processing

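With a scaling on the segments that lie outside the target loci, the operon segments called lower in the precipitate went from 6 to 0, the summed operon turned from -0.59 to 0.0236, its excess went to -0.0358, its segments at chrPt:72111-72119, chrPt:72120-73641, chrPt:74564-77205 and chrPt:77623-101056 turned to 0.500, 0.262, 0.0395 and 0.00529, and *psbB* turned to 0.261 in the precipitate and 0.181 as excess. With DESeq2 the summed operon was -0.42 (adjusted p = 0.012), with TMM -0.76 and with the sum of counts -1.31 (excess -1.37). DESeq2 and TMM set their factors for summed features apart from those for segments. In the inputs the *petB* intron and exon 2 turned to -0.0236 and -0.0452 with TMM and to -0.0176 and -0.0370 with DESeq2. Against *psbB*, *psbT* and *psbH* the intron ratios turned to -0.0469 for *petB* and 0.00889 for *petD* in the input and to -0.0860 for *petD* in the precipitate. TMM and DESeq2 size factors moved the median precipitate segment by -2.14 and -1.96 and gave 144 higher and 198 lower, and 175 higher and 184 lower, in place of 400 and 84. The sum of counts as library size gave 330 and 124, and the scaling outside the target loci 425 and 16. The input calls in the operon, 1 higher and 1 lower, both became 0 with TMM, DESeq2 and the replicate block. The lower one also became 0 with scaling outside the target loci and without the filter. The replicate number was not taken to pair the lines, since same-numbered samples of different lines within a fraction did not deviate together (correlations of -0.15 to 0.13). Precipitate and input of the same line and number were taken as the same pool, which these correlations do not concern. With the replicate number as a block, the precipitate table had 397 higher and 72 lower segments and the inputs 2 and 0. In the operon 4 segments were then lower (6 without the block), and the summed operon was at -0.59 (adjusted p = 0.0074, edgeR). Not every sample correlated best with its own number. Leaving out 1 library at a time gave 3 to 6 lower precipitate segments in the operon (3 without *At*MKIP1-YFP replicate 2), 0 to 4 higher (4 without *At*MKIP1-YFP replicate 1) and 0 to 1 lower input segments, an excess of the operon of -0.80 to -0.51, and a *petD* ratio in precipitate over input of 1.19 to 1.31 (exact p = 0.0625, the smallest possible with 5 pools). Values that changed sign without 1 library ran from -0.26 to 0.15 for the precipitate segment chrPt:72111-72119 and, in the input, from -0.0311 to 0.173 for the operon, -0.00672 to 0.190 for *psbB*, -0.0565 to 0.166 for the *petB* intron, -0.0544 to 0.114 for *petB* exon 2, -0.0486 to 0.255 for the *petD* intron, -0.0335 to 0.0922 for the *petB* ratio and -0.0654 to 0.0363 for the *petD* ratio. Of 333 values recomputed under alternatives, 250 kept their direction and their side of the threshold and 28 changed direction, and 28 of 48 recomputed counts of segments were within 1.5 times the first. The *petD* intron to exon ratio depends on the read length added to short segments, and segments at least 50% inside an intron gave no precipitate value.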
